A study of Homo sapiens with 8 samples.

Results

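The imprinted microRNA cluster at chromosome 14q32, between the genes DLK1 and DIO3, was represented by 40 entries among the 2867 of a table of small RNA counts from HEK293, a widely used line derived from human embryonic kidney. Entries were taken by name, from 49 hairpin names of the locus, of which 39 had an entry. The other 10 names (miR-154, miR-300, miR-376b, miR-377, miR-496, miR-544a, miR-665, miR-668, miR-770 and miR-1193) are not analysed here. The entries miR-376a-3p and miR-376a-2-3p carried identical counts in all 8 libraries, so 39 separate series of counts remained. Cells had been transfected with 100 nM of an ASO (antisense oligonucleotide, a synthetic strand made to pair with a chosen RNA), here aimed at miR-31 according to the library names in a study of ASOs against microRNA precursors, or had been given none. All were harvested at 48 h, with 4 libraries per group, and the question put was whether the ASO altered small RNAs that it was not aimed at. No group received an unrelated ASO, the labels do not say whether the controls were mock-transfected, and separate cultures are not stated, so the p-values rest on a spread among libraries that may be technical.

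The 14q32 locus is transcribed in opposite patterns from the chromosomes inherited from each parent. DLK1, RTL1 and DIO3 are read from the paternal chromosome, while the long noncoding RNAs MEG3, MEG8 and MEG9 and the microRNAs embedded in and around them are read from the maternal one. The microRNAs are best known from brain, placenta and embryonic tissue, where several are processed from long shared precursors, and many tumours and cell lines have little of them. A mature microRNA is guided to its targets mainly by its seed, the bases 2 to 8 counted from its 5′ end.

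The hairpins of the 40 entries spanned 197.7 kb of the plus strand (GRCh38), from MIR493, chr14:100869060-100869148, to MIR656, chr14:101066724-101066801. They fell into an upstream segment with 8 entries and the miR-379/410 segment with 31 separate entries, with 110.9 kb between MIR370 and MIR379. In GENCODE 29, MIR431, MIR433, MIR127, MIR432 and MIR136 lie inside a coding exon of RTL1 on the opposite strand. MIR379 to MIR495 lie in an intron of MEG8, MIR381 to MIR655 in an intron of MIR381HG, and MIR410 in an exon of MEG9. The hairpins of the miR-376 group and MIR134 lie inside no other annotated gene, with genes of microRNAs and other small RNAs left out of the search.

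Mature sequences from RefSeq (GRCh38.p14) matched 38 of the 40 entries by name. Those shown here belong to the members whose ASO and control libraries stood apart, to the most abundant members and to the closest relatives, with the seed in capitals.
miR-329-3p: aACACACCugguuaaccucuuu
miR-655-3p: aUAAUACAugguuaaccucuuu
miR-485-3p: gUCAUACAcggcucuccucucu
miR-379-5p: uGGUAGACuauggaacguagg
miR-411-5p: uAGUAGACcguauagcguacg
miR-494-3p: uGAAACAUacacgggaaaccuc
miR-381-3p: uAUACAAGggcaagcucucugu
miR-409-3p: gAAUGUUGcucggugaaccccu
miR-127-3p: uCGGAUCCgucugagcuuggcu
miR-323a-3p: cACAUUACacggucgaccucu
miR-323b-3p: cCCAAUACacggucgaccucuu
miR-543: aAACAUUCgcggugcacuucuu
miR-495-3p: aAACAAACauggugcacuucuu
miR-376a-3p: aUCAUAGAggaaaauccacgu
miR-376c-3p: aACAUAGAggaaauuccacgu
miR-487a-3p: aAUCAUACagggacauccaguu
miR-487b-3p: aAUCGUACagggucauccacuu

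The 38 sequences had 38 different seeds, so no pair of measured members shared all 7 seed bases, although several were close copies of each other elsewhere. Of 703 pairs compared base by base from the 5′ end, 5 were at least 80% identical, against a median of 27.3% over all pairs. miR-323a-3p and miR-323b-3p matched at 19 of 21 positions, as did miR-376a-3p and miR-376c-3p, and miR-487a-3p and miR-487b-3p matched at 19 of 22. miR-329-3p and miR-655-3p matched at 18 of 22 positions but at 3 of the 7 in the seed, so the shared part lies behind the seed, and miR-543 and miR-495-3p matched at 18 of 22. How reads that fit more than a single such sequence were counted is not given in the sources used here. The length given for the entry equalled that of the RefSeq sequence in 31 of 38, was longer in 3 (by 3 bases for miR-541-3p) and shorter by 1 base in 4.

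Some measured members shared their seed with microRNAs made elsewhere in the genome. miR-655-3p has the seed of miR-374c-5p (X chromosome), and miR-379-5p that of miR-3529-5p (chromosome 15). Across the 39 hairpin names a single arm was listed each time, 27 entries being 3p arms and 11 5p arms with 2 named without an arm, so the use of the 2 arms of a hairpin could not be compared.

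Total counts were 8168828 to 11677123 per library, and levels below are TMM-scaled CPM, the counts of an entry divided by the effective library total and put on a common scale, whose factors were 0.966 to 1.03. The intended target, miR-31-5p, was at 633 to 1012 CPM with ASO and 348 to 1050 CPM without it (edgeR log2 fold change 0.19, adjusted p = 0.851), so it gave no check of the labels. Of the 5 microRNAs taken as usual for proliferating HEK293 cells (miR-17-5p, miR-20a-5p, miR-92a-3p, miR-10a-5p and miR-10b-5p), all were present, with a sum of 112140 to 123916 CPM. Of 11 markers of blood, liver, muscle, neurons and endothelium, 7 had an entry, summing to 3932 to 4375 CPM with ASO and 4230 to 4700 CPM without it. Most of that came from miR-9-5p, a microRNA of neurons, and miR-126-3p of endothelium. The blood marker miR-142-3p and the muscle marker miR-206 were above 0 in a single library each, with 4 and 5 counts. Other muscle markers were present. miR-1-3p was above 0 in all 8 libraries, at 5.31 to 7.51 CPM with ASO and 4.68 to 6.49 CPM without it. miR-133a-3p was above 0 in 6 libraries and averaged 0.607 CPM. The liver microRNA miR-122-5p was at 24.8 to 40.4 CPM with ASO and 10.1 to 14.8 CPM without, groups that did not overlap but missed the threshold (edgeR adjusted p = 0.0516), and its part in the results on the cluster was not tested. Control library 1 stood apart: among all 745 entries tested it was the highest library in 26.3% and the lowest in 27.4%. Fewer cells expressing a microRNA and less of it per cell cannot be told apart in such bulk samples.

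The cluster was a small part of the HEK293 microRNA pool. Its members together took 0.0475% to 0.0521% of all counts, and no member averaged above 100 CPM. The summed level was 523.7, 491.5, 518.7 and 500.5 CPM across ASO libraries 1 to 4 and 539.6, 514.9, 464.5 and 478.4 CPM across controls 1 to 4. Groups overlapped, with means of 509 ± 15.2 CPM with ASO and 499 ± 34.2 CPM without it (SD, n = 4 each), a difference of 9.20 CPM that is smaller than the spread among controls.

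Counting found 30 members above 0 in all 8 libraries, and 15 members above 10 CPM. The 10 most abundant carried 77.6% of the summed level, and the first 5 of them (miR-381-3p, miR-409-3p, miR-379-5p, miR-127-3p and miR-323a-3p) carried 51.2%. Ligation and amplification favour some small RNA sequences, so this order of levels among microRNAs of nearly equal length is that of reads, not of molecules. The upstream segment held 19.6% of the sum. The median member stood at 1.41 ± 0.34 on the log2(CPM + 1) scale in the upstream segment and at 2.36 ± 0.38 in the miR-379/410 segment (SD over 8 libraries). Entries of the miR-379/410 segment ranged from 74.4 CPM for miR-381-3p to 0.121 CPM for miR-376c-3p.

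**Figure D1:**
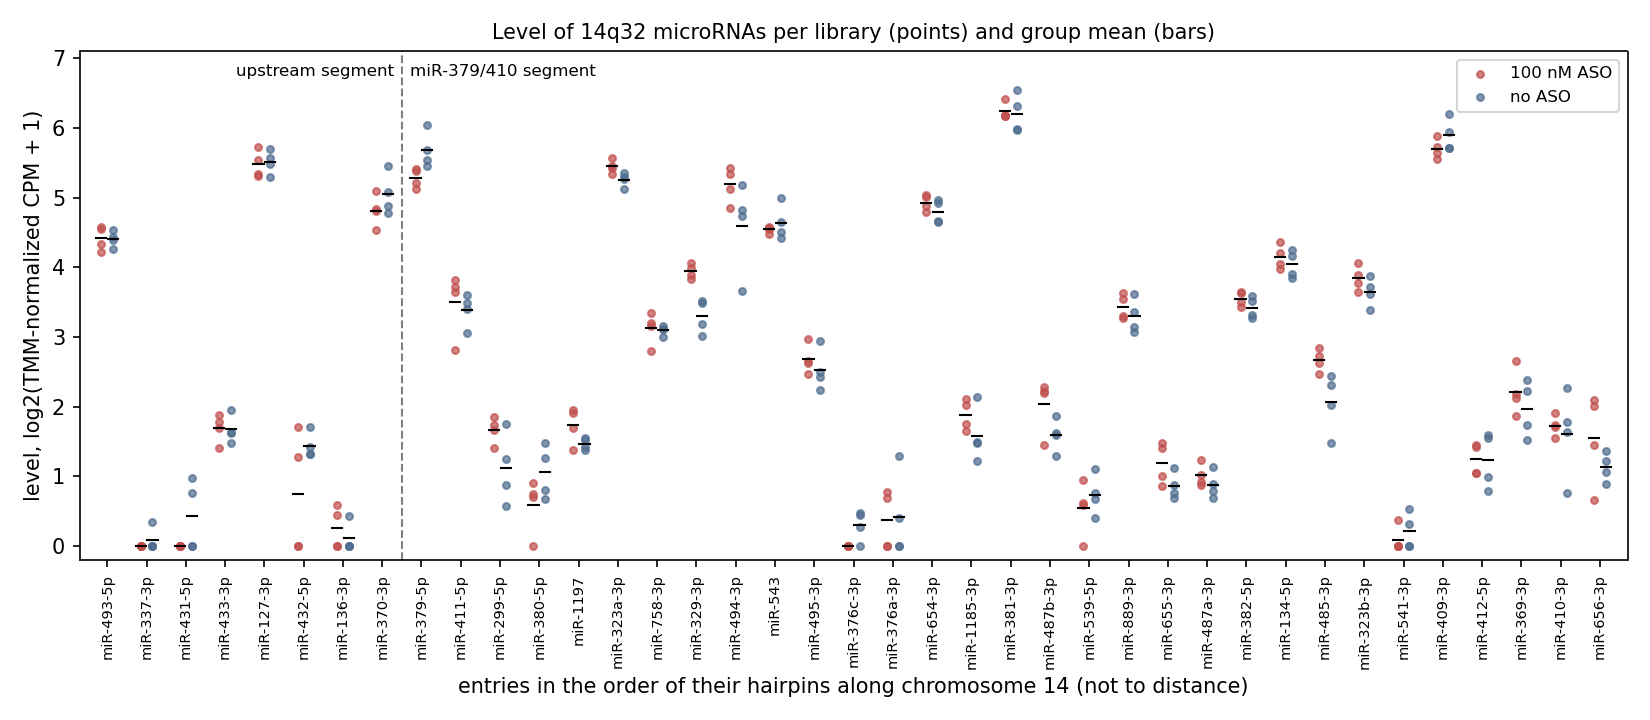
Level of each of 39 separate 14q32 entries in every library, as log2(TMM-normalized CPM + 1), in the order of the hairpins along the chromosome, with ASO libraries in red, controls in blue and bars at the group means. Levels differ widely within the miR-379/410 segment: miR-381-3p averaged 74.4 CPM while miR-376a-3p, a few hairpins before it, averaged 0.385 CPM.

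miR-381-3p, from MIR381 (chr14:101045920-101045994), was the most abundant member and ranked 192 among 903 known microRNAs. It stood at 84.6, 71.3, 72.0 and 71.2 CPM across ASO libraries 1 to 4 and at 92.9, 78.5, 62.5 and 62.0 CPM across controls 1 to 4. Library 1 was the highest of each group and the groups overlapped, with a log2 fold change of 0.02 (SE 0.15, 95% interval −0.33 to 0.36, edgeR adjusted p = 0.972). The sign of that value turned with quantile normalization (−0.0034) and without ASO library 1, control library 3 or control library 4 (−0.05 to −0.07).

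miR-409-3p, from MIR409 (chr14:101065300-101065378) in an intron of MEG9, averaged 51.4 ± 5.08 CPM with ASO and 59.1 ± 9.89 CPM without it. Control library 1 held 72.5 CPM, above the 51.5 to 60.7 CPM of the other controls. The log2 fold change of −0.20 (SE 0.14, edgeR adjusted p = 0.543) was −0.07 without control library 1 and −0.28 without ASO library 4. miR-370-3p, from MIR370 (chr14:100911139-100911213), had a like pattern, reaching 43.1 CPM in control library 1 while the other 3 controls averaged 29.2 ± 3.24 CPM. Its log2 fold change of −0.25 became −0.07 without control library 1 and −0.36 without ASO library 1.

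miR-127-3p comes from MIR127 (chr14:100882979-100883075), which lies antisense to RTL1, and is known to direct the cleavage of RTL1 messenger RNA. It averaged 43.9 ± 6.28 CPM with ASO and 44.8 ± 5.25 CPM without it, with overlapping groups. The log2 fold change was −0.03 (SE 0.13, 95% interval −0.34 to 0.28), and its sign turned to plus without ASO library 2 (0.0091), ASO library 4 (0.01) or control library 1 (0.05). Of the other tested upstream members, miR-493-5p averaged 20.5 ± 2.56 and 20.3 ± 1.73 CPM (log2 fold change 0.02, or −0.04 without ASO library 1 or ASO library 4 and −0.02 without control library 1), and miR-433-3p 2.25 ± 0.444 and 2.21 ± 0.460 CPM (log2 fold change 0.03).

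In the comparison of ASO with control libraries no member passed the threshold of an adjusted p of 0.05. Of the 30 members with enough counts to be tested (a mean count of at least 10, and above 0 in at least 4 libraries), edgeR's quasi-likelihood test, adjusted over all 745 entries, called 0 higher and 0 lower, where it called 0% of all tested entries higher and 0.134% lower. At an unadjusted p under 0.05 there were 2 members higher and 1 lower, against 4.43% and 6.04% of all tested entries. DESeq2 called 1 member higher, miR-329-3p, and 0 lower, where it called 0.403% of all tested entries higher and 1.34% lower. For limma on quantile-normalized values the members called were 0 in either direction, against 0.134% of all tested entries higher and 0.268% lower. The fold was above 1 in 23 of the 30 members, or 76.7%, where it was above 1 in 51.7% of all tested entries. The median log2 fold change was 0.14 over the members and 0.01 over all entries. Members share their libraries and in part their precursor transcript, so they are not separate observations of the treatment.

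**Figure D2:**
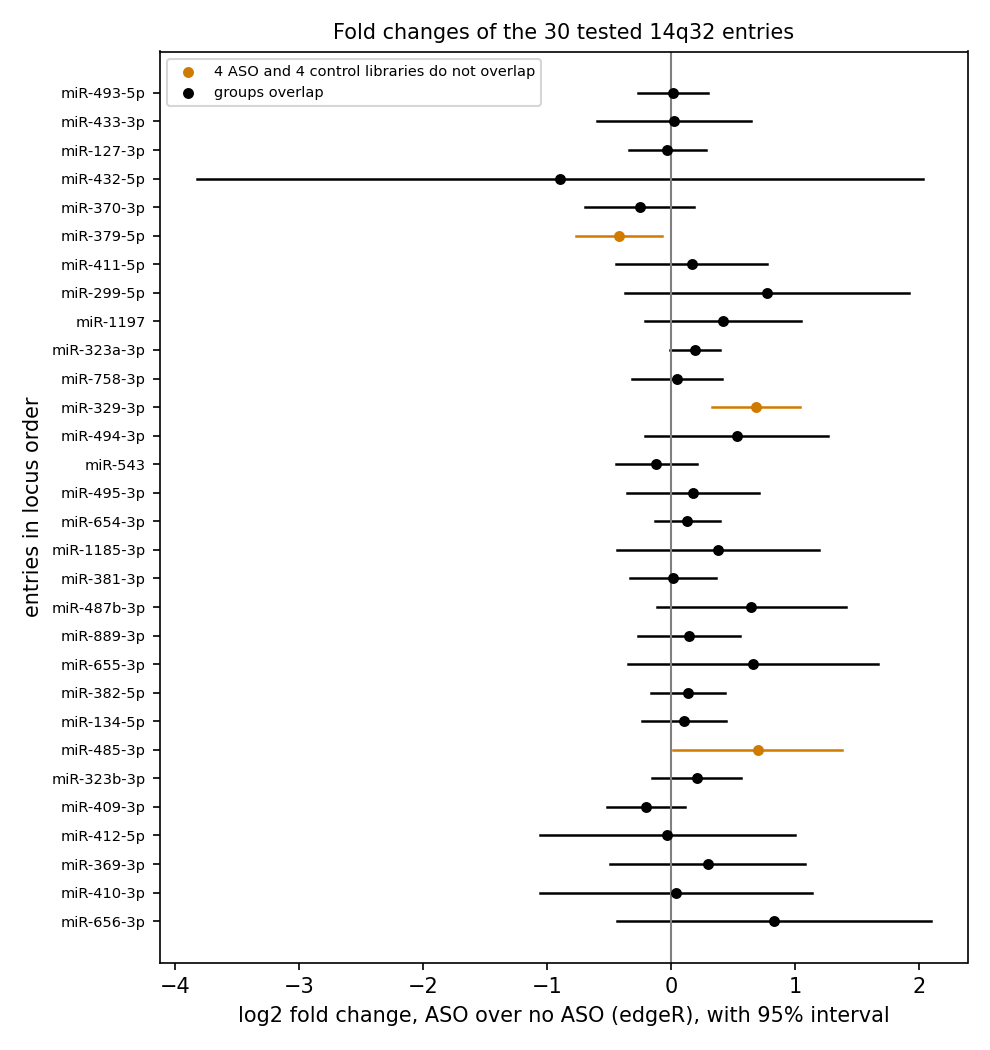
Log2 fold change of ASO over control libraries for the 30 tested members in locus order, from edgeR, with 95% intervals that are not adjusted for the number of members. The 3 members whose groups did not overlap are in orange, and the widest interval, −3.82 to 2.04, belongs to miR-432-5p.

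miR-329-3p had the smallest p of the cluster and the sixth smallest of the table. It is made from 2 hairpins of the same mature sequence, MIR329-1 (chr14:101026785-101026864) and MIR329-2 (chr14:101027100-101027183), both in an intron of MEG8, and is known from neurons, where it is induced by activity together with its neighbours, and from studies of blood vessel growth. The level was 13.8, 14.9, 13.3 and 15.6 CPM across ASO libraries 1 to 4 and 8.09, 7.12, 10.2 and 10.4 CPM across controls 1 to 4. Every ASO library lay above every control. The mean was 14.4 ± 1.05 CPM with ASO and 8.96 ± 1.62 CPM without it, a fold of 1.61 (95% interval 1.25 to 2.06; log2 fold change 0.68, SE 0.15, unadjusted p = 0.00242, edgeR adjusted p = 0.3003). Under DESeq2 the log2 fold change was 0.67 with an adjusted p of 0.00789, and over all alternatives tried the adjusted p ran from 0.00789 to 0.660. An exact two-sided permutation test of the log2 levels gave p = 0.0286, the smallest that 4 libraries against 4 allow. Any member whose groups do not overlap gets this same p, so it restates the separation and adds nothing to it.

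miR-485-3p, from MIR485 (chr14:101055419-101055491), a hairpin studied for its action at synapses, was the other member with every ASO library above every control. It stood at 5.61, 4.53, 5.18 and 6.18 CPM with ASO and at 1.77, 3.08, 4.43 and 3.95 CPM without it. The gap between the groups was narrow, from 4.43 CPM in control library 3 to 4.53 CPM in ASO library 2, and control library 1 was the lowest of all. The log2 fold change was 0.70 (SE 0.29, 95% interval 0.02 to 1.38, edgeR adjusted p = 0.445). It was 0.50 without control library 1 and 0.87 without control library 3.

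These 2 of 30 members without overlap in the higher direction make 6.67%, where 3.09% of all tested entries did so. In the lower direction there was 1 member, or 3.33%, against 5.23% of all tested entries.

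That member was miR-379-5p, from MIR379 (chr14:101022066-101022132), the hairpin that opens the miR-379/410 segment, a segment whose deletion in mice is known to impair metabolic adaptation after birth. It was at 34.0, 36.2, 41.6 and 40.6 CPM across ASO libraries 1 to 4 and at 64.9, 45.7, 50.3 and 42.8 CPM across controls 1 to 4. All ASO libraries lay below all controls, the nearest being ASO library 3 and control library 4. The log2 fold change was −0.42 (SE 0.15, 95% interval −0.76 to −0.08, edgeR adjusted p = 0.42). It was −0.27 without control library 1, the highest, and −0.50 without control library 4.

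A ratio of 2 entries within a library does not depend on the scaling between libraries. The ratio of miR-329-3p to miR-379-5p was 0.405, 0.411, 0.320 and 0.385 across ASO libraries 1 to 4 and 0.125, 0.156, 0.202 and 0.244 across controls 1 to 4. It was higher in every ASO library than in any control. That separation was fixed beforehand, as miR-329-3p lay above and miR-379-5p below all controls in every ASO library. This pair was picked after its values were seen, and the ratio has no test.

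**Figure D3:**
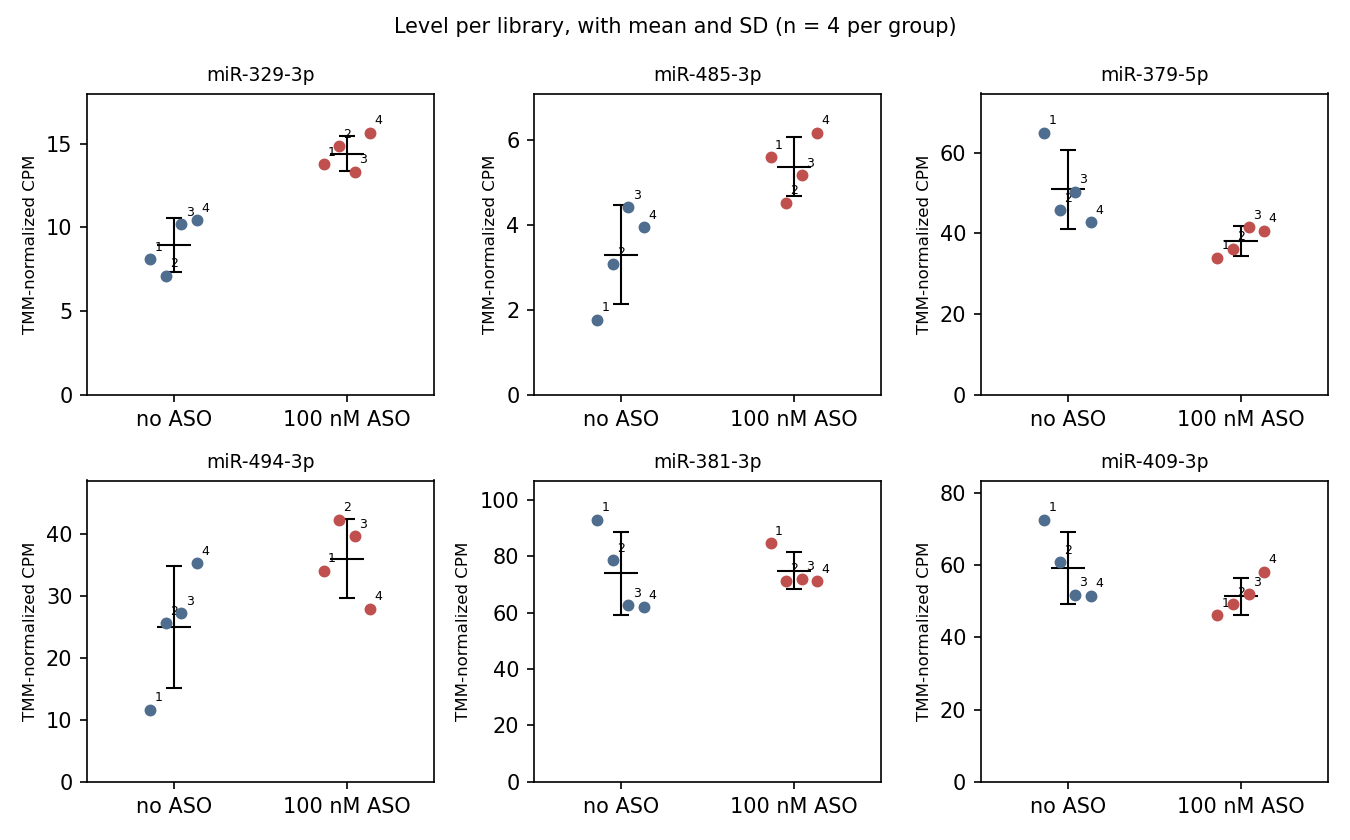
TMM-normalized CPM of 6 members in each library (numbered points), with mean and SD of 4 libraries per group. The groups are apart for miR-329-3p, miR-485-3p and miR-379-5p and overlap for miR-494-3p, miR-381-3p and miR-409-3p, where control library 1 lies at an end of its group.

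miR-323a-3p, from MIR323A (chr14:101025732-101025817), had the most precise fold change of the cluster. It averaged 42.7 ± 2.87 CPM with ASO and 37.3 ± 2.53 CPM without it, and a single pair of libraries overlapped, ASO library 2 at 39.5 CPM and control library 4 at 39.8 CPM. The log2 fold change was 0.20 (SE 0.09, 95% interval −0.0057 to 0.40, edgeR adjusted p = 0.445). Its close copy miR-323b-3p, at 13.4 ± 1.81 and 11.6 ± 1.77 CPM, had a log2 fold change of 0.21 (edgeR adjusted p = 0.598).

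Other close copies gave values that can be set side by side. miR-655-3p, with 1.31 ± 0.474 CPM with ASO and 0.828 ± 0.246 CPM without it, had a log2 fold change of 0.66 (SE 0.43), beside the 0.68 of miR-329-3p but with overlapping groups. With quantile normalization the value for miR-655-3p was 0.26 and that for miR-329-3p 0.58. miR-374c-5p, which has the seed of miR-655-3p but lies on the X chromosome, had a log2 fold change of 0.61 (SE 0.35, edgeR adjusted p = 0.495). miR-543 was at 22.4 ± 0.695 CPM with ASO and 24.3 ± 4.72 CPM without it (log2 fold change −0.12, or 0.04 without control library 1), while for its copy miR-495-3p that value was 0.18. miR-411-5p, whose seed differs from that of miR-379-5p at 1 position, had a log2 fold change of 0.17 (SE 0.26).

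miR-494-3p, from MIR494 (chr14:101029634-101029714), which is also studied in blood vessel growth, had the largest coefficient of variation in both groups among the 10 most abundant members. It was at 34.1, 42.2, 39.6 and 27.9 CPM with ASO and at 11.6, 25.6, 27.2 and 35.3 CPM without it. Control library 1 was far below the other controls, which averaged 29.4 ± 5.18 CPM, and control library 4 overlapped the ASO group. The log2 fold change was 0.53 (SE 0.32, edgeR adjusted p = 0.515). It was 0.30 without control library 1 and 0.73 without control library 4.

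Members with few counts had wide intervals. miR-487b-3p was at 3.67, 3.86, 3.57 and 1.74 CPM with ASO and at 2.07, 2.66, 1.44 and 2.02 CPM without it (log2 fold change 0.65, SE 0.33, edgeR adjusted p = 0.459). miR-656-3p had the highest log2 fold change, 0.83 (SE 0.54), with ASO library 2 at 3.27 CPM and ASO library 4 at 0.579 CPM. The log2 fold change of miR-656-3p was 0.41 with quantile normalization, 0.54 without ASO library 2 and 1.13 without ASO library 4. miR-432-5p had the lowest, −0.89 (SE 1.26), and it was at 0 in ASO libraries 3 and 4 with 14 and 27 counts in ASO libraries 1 and 2 and 14 to 23 counts in controls. Without ASO library 2 the value for miR-432-5p was −1.87, and without ASO library 3 or ASO library 4 it was −0.50 and −0.51, while a fit with the library numbers as a replicate block gave −2.28. A count of 0 allows up to 3 counts, or 0.257 to 0.367 CPM in these libraries before TMM scaling, and covers counting error only.

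The remaining tested members had overlapping groups. Among them miR-134-5p, which restrains dendritic spine growth through LIMK1, averaged 16.8 ± 2.19 CPM with ASO and 15.6 ± 2.25 CPM without it (log2 fold change 0.10), and miR-654-3p 29.6 ± 2.29 and 27.0 ± 3.27 CPM (0.13, or 0.08 without ASO library 2 or control library 3 and 0.20 without control library 2). miR-299-5p (0.77), miR-1197 (0.42), miR-1185-3p (0.38) and miR-369-3p (0.30) had larger log2 fold changes on fewer counts, with standard errors of 0.27 to 0.49. The value for miR-299-5p was 0.50 with quantile normalization and 1.26 without control library 4. miR-889-3p (0.15), miR-382-5p (0.14), miR-758-3p (0.05), miR-410-3p (0.04) and miR-412-5p (−0.03) were closer to 0.

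The 10 untested entries had mean counts of 0.375 to 9.625, below the filter. miR-487a-3p, with a mean count of 9.625, was just under the filter of 10, and miR-655-3p, with 11.125, was just above it. miR-380-5p and miR-539-5p were above 0 in 7 libraries each. Both miR-376a entries held 29 counts in all and the related miR-376c-3p held 9, although the miR-376 group is among the best studied of the locus because its precursors are edited from A to I. miR-431-5p was seen in 2 libraries, with 7 and 9 counts in control libraries 1 and 2, and miR-136-3p, miR-541-3p and miR-337-3p held 13, 10 and 3 counts in all.

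How far the data could resolve a change differed between members. The 95% interval of the fold change lay within 2-fold in either direction for 17 of the 30 tested members (56.7%), as it did for 55.7% of all tested entries, and within 1.5-fold for 12. The coefficient of variation between replicates was under 1.5 times that of counting alone in 15 members among ASO libraries and 10 among controls. For miR-543 it was 3.11% among ASO libraries, where counting alone gives 6.43%, and 19.4% among controls, where counting gives 6.46%. For miR-494-3p among controls it was 39.4%, where counting gives 6.36%.

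Control library 1 held members at both ends, as it did tested entries at large. It was the highest library for 6 of the 30 tested members and the lowest for 7. Among all tested entries it was the highest for 26.3% and the lowest for 27.4%. It was the highest for miR-381-3p, miR-409-3p, miR-379-5p, miR-370-3p, miR-543 and miR-432-5p, and the lowest for miR-494-3p, miR-485-3p, miR-323a-3p, miR-323b-3p, miR-369-3p, miR-299-5p and miR-410-3p. Counted against the mean over all libraries, control library 1 was above it for 9 of the 30 tested members. Control library 3 was above it for 7 of 30. That library was the lowest for 9 members (30%), where it was the lowest for 7.92% of all tested entries. Control library 3 also had the smallest total, 8168828 counts, and whether depth played a part was not tested. ASO library 1 was above the mean for 22 of 30, and ASO library 3 and control library 2 for 20 each. ASO libraries 2 and 4 were nearer an even split, at 17 and 15, and control library 4 was above the mean for 11. The median deviation of the members ran from −0.18 in control library 1 to 0.19 in ASO library 3 on the log2(CPM + 1) scale, and that of all tested entries from −0.0067 to 0.055.

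**Figure D4:**
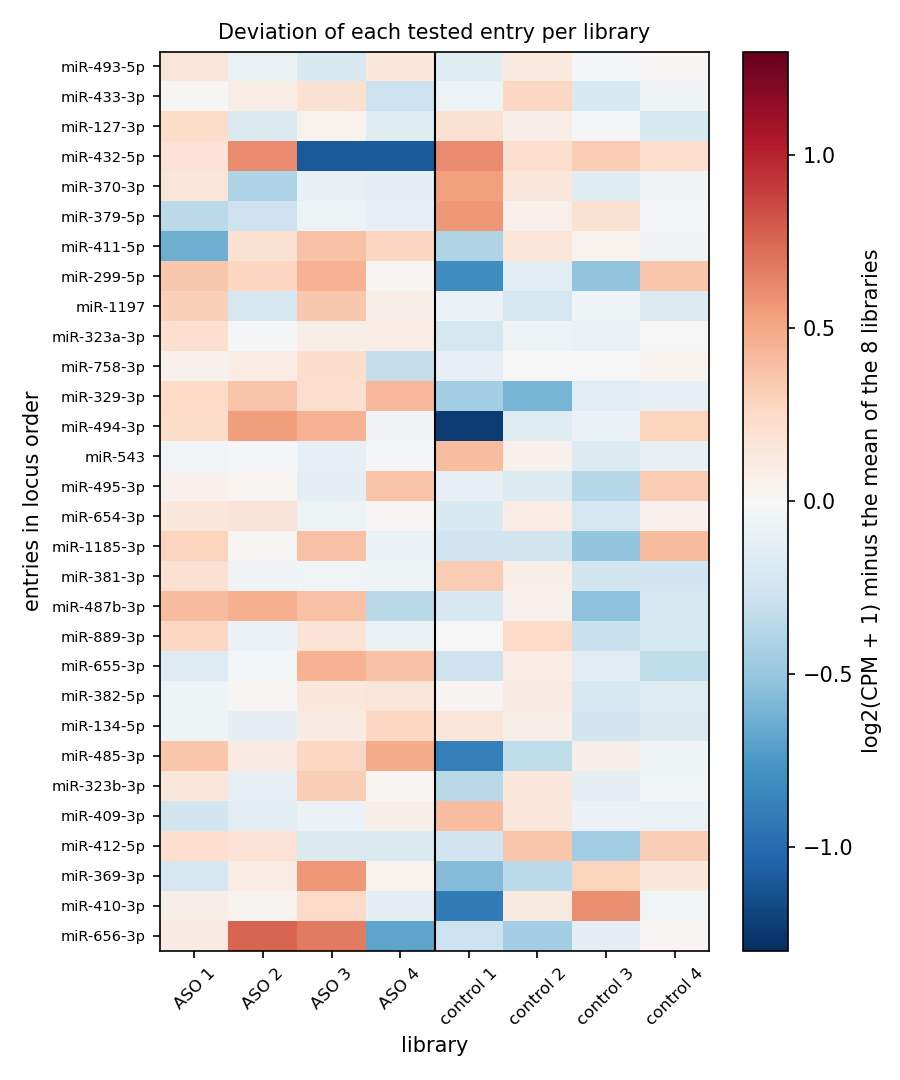
Deviation of each tested member in each library from its mean over the 8 libraries, in log2(CPM + 1), with red above and blue below the mean. Control library 1 holds both high members (miR-379-5p, 0.56) and low ones (miR-494-3p, −1.23), and miR-432-5p is low in ASO libraries 3 and 4, where its count was 0.

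Between the segments, 2 of 5 tested upstream members and 21 of 25 tested members of the miR-379/410 segment had a fold above 1, with median log2 fold changes of −0.03 and 0.18. The difference between segments was not tested.

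Other imprinted microRNAs were set beside the cluster. miR-296-3p of the GNAS locus averaged 586.1 ± 21.8 CPM with ASO and 542.5 ± 38.9 CPM without it, a level near that of the whole 14q32 sum (log2 fold change 0.11, edgeR adjusted p = 0.505). miR-483-3p of IGF2 averaged 24.4 ± 2.68 and 20.4 ± 3.91 CPM, miR-335-3p of MEST 9.61 ± 1.73 and 9.39 ± 2.41 CPM, and miR-675-5p of H19 held 6 counts in all. Of the 15 such entries, which include the placental cluster at 19q13, 5 were tested, 4 had a fold above 1 and edgeR called 0. The other entry from between DLK1 and DIO3, miR-1247-3p, which lies beside DIO3 and outside the list of hairpin names, held 21 counts in 5 libraries.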

How the data were processed

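Small RNA libraries of 8 HEK293 samples were grouped by their titles (4 ASO, 4 control). Per the labels' protocols, total RNA came from a miRNeasy kit and was prepared with a small RNA kit from NEB. bcl2fastq 2.20, Trimmomatic 0.30, edgeR 3.4.6 and GRCh38 are named in the submitters' processing notes, while not given in the sources used here are the aligner, the counter and the microRNA annotation. The authors deposited whole, unscaled counts per entry. The authors also deposited columns headed TPM, which hold CPM (counts over the library total), and these were not used for tests.

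Counts were scaled with TMM and tested with edgeR 4.0.16 (quasi-likelihood, Benjamini-Hochberg over all 745 entries). The test was tried on simulated counts with known changes. The share of those changes that it recovered is not reported here. Standard errors are the log2 fold change over the square root of F. DESeq2 1.42.0 and limma 3.58.1 were alternatives, beside other filters, scalings, merged entries, known microRNAs alone, a replicate block and each library left out. Total counts of 8168828 to 11677123 make 1 count worth 0.0856 to 0.122 CPM. Members, lists and tests were chosen with earlier results of these data known. Named microRNAs were the 10 most abundant members, those past the threshold, the 5 smallest p, those without overlap between groups and the extreme fold changes, and others were added as examples, close copies or low counts after their values were seen. Positions came from GENCODE 29 (GRCh38) and sequences from RefSeq.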

Additional observations from a re-analysis of the deposited data

Results flagged for a closer look

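In 2 of 62 groups of 4 libraries examined (30 members and their sum, in each group), a library lay far from the other 3, where chance alone gives about 1 in 20. miR-381-3p was at 84.6 CPM in ASO library 1 and at 71.2 to 72.0 CPM in the other 3 ASO libraries. miR-487b-3p was at 1.74 CPM in ASO library 4, from 18 counts, and at 3.57 to 3.86 CPM in the other 3 ASO libraries.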

How the results depend on the processing

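The count of members called lower stayed 0 under every alternative run, and that of members called higher was 0 except with DESeq2, where it was 1 (miR-329-3p, log2 fold change 0.67, adjusted p = 0.00789). The cause was not tested. The number with a fold above 1 was 23 under each scaling and 20 to 24 with a library left out. With a mean count of at least 100, where fewer members were tested, it was 10 of 15 (66.7%), against 55.9% of all entries tested. With no filter it was 25 of 40 (62.5%), against 50.7% of all entries, and the median log2 fold change of the members was 0.097. Among known microRNAs alone it was 23 of 30 (76.7%), against 57.0% of all known entries tested. The median over tested members was 0.07 to 0.20 with a library left out (lowest without ASO library 3). The difference in summed level was −2.42 to 22.6 CPM, negative only without control library 3 and highest without control library 1, and that between segment medians 0.78 to 1.09. With a library left out, log2 fold changes were −0.069 to 0.16 for miR-381-3p, −0.13 to 0.051 for miR-127-3p, −0.042 to 0.072 for miR-493-5p and −0.20 to 0.037 for miR-543, all of them turning sign, and miR-381-3p was −0.0034 with quantile normalization. In the fit with a replicate block on the library numbers 0 members were called and 24 had a fold above 1. The numbers are not stated to pair libraries, and the deviations of same-numbered libraries correlated at 0.00740, 0.0344, 0.297 and −0.0394 over 745 entries. ASO library 3 alone correlated best with the control of its own number. Arm shares were not run, since no hairpin had both arms listed.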

Other observations

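The letters ACCUC, which lie near the 3′ end of several of these sequences, occurred in 6 of the 38 matched members (miR-323a-3p, miR-323b-3p, miR-329-3p, miR-494-3p, miR-655-3p and miR-656-3p), or 15.8%, and in 1.77% of 2370 RefSeq mature human microRNAs, searched on the strand of the microRNA. Several of the 6 are close copies, so they are not separate occurrences, and the 2370 sequences include them. miR-323a-3p matched miR-323b-3p at 19 of 21 positions and miR-656-3p at 16 of 21, and miR-329-3p matched miR-655-3p at 18 of 22. The log2 fold changes of these 6 members ran from 0.20 to 0.83, and edgeR called 0 of them. Of 6 tested microRNAs elsewhere in the genome that hold the same letters, 1 had a fold above 1, with a median log2 fold change of −0.22. Among all 30 tested members, with or without these letters, 23 had a fold above 1. GGUCGACC occurred in 3 of the 38 (miR-323a-3p, miR-323b-3p and miR-412-5p) and in no other of the 2370. Both strings were chosen after the sequences and values had been seen, and neither was tested.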
